A study of Mus musculus with 9 samples.

Results

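The RUNX transcription factors Runx1, Runx2 and Runx3 and their shared partner Cbfb were followed through the chromatin contacts listed for mouse double-positive thymocytes. The 4 genes were chosen by name from 21627 protein-coding genes, and their contacts were all interactions with anchor midpoints at least 10 kb apart in which either anchor overlapped the gene body or the 5 kb on each side of it. HiChIP, which pairs chromatin conformation capture with immunoprecipitation, reports DNA segments that lay near each other and near the precipitated protein. CD4+ CD8+ thymocytes were sorted from C57BL/6J mice (BL6), from NOD/ShiLtJ mice (NOD), a strain prone to autoimmune diabetes, and from (NOD/ShiLtJ X C57BL/6) F1 mice. None of the groups carried a labelled treatment or engineered allele, and the labels give neither age nor sex. The antibodies were against Smc1, a cohesin subunit, with 2 libraries for BL6, 2 for NOD and 1 for F1, or against acetylated lysine 27 of histone H3 (H3K27ac), a mark of active promoters and enhancers, with 2 libraries for BL6 and 2 for NOD. The Smc1 libraries of a strain are technical replicates of 1 biological replicate, so their spread may be technical, whereas the H3K27ac libraries are biological replicates. The F1 library was deposited on both genomes, giving 10 tables from 9 libraries. For the H3K27ac samples the antibody field was followed, although their titles carry the name Smc1.

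RUNX proteins bind DNA through the Runt domain, and Cbfb, which does not bind DNA itself, raises their affinity for it. In the thymus Runx1 serves the early stages and the silencing of Cd4 before the double-positive stage, Runx3 silences Cd4 in cells that become CD8 T cells, and Runx2 is best known as the master factor of bone formation. Each RUNX gene is transcribed from a distal and a proximal promoter. A contact is a physical proximity and not a level of transcription, and in a bulk sample a contact present in fewer cells and one held for less of the time cannot be told apart.

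The promoters are shown first, because the distal ones carry the RUNX sequence itself. The RefSeq table of promoters (GRCm38.p6, 250 bases before to 50 after each start site) held 2 promoters for Runx1, 2 for Runx3, 1 for Runx2 (the distal one) and 1 for Cbfb. The longest run common to the distal promoters of the 3 RUNX genes was 18 bases long and holds the RUNX core ACCACA in tandem. It lay at bases 27 to 44 after the Runx1 start site (stretch chr16:92826025-92826054, minus strand), at bases 22 to 39 after the Runx2 start site (chr17:44814583-44814612, minus strand) and from 136 to 119 bases before the Runx3 start site (chr4:135120503-135120532, plus strand). The stretches below show it in capitals with 6 bases on each side.

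Runx1 distal promoter: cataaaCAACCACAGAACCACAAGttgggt
Runx2 distal promoter: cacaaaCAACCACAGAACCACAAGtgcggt
Runx3 distal promoter: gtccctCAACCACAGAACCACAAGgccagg

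Of 32851 promoter windows, read on both strands, 4 held this run (0.0122%), and the fourth belonged to Gm16225, a gene that starts on the opposite strand at the Runx3 distal promoter, so that its window holds the same bases. The core alone (ACCACA or TGTGGT) was found in 16.8% of all windows and at least 2 copies in 1.81%. The proximal promoters of Runx1 and Runx3 and the promoter of Cbfb held no core in their windows. The 2 kinds of promoter also differed in base composition, with 45% and 45.3% G and C in the distal windows of Runx1 and Runx2, 63.7% in that of Runx3, 69% and 77.3% in the proximal windows of Runx1 and Runx3 and 69.7% at Cbfb. The 250 bases before both Runx1 start sites are given because their contacts differed, as described below, with each CpG in capitals. The distal stretch (chr16:92826075-92826324, minus strand) held 2 CpGs and the proximal one (chr16:92697330-92697579, minus strand), which lies inside the gene, 27.

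Runx1 distal promoter, upstream bases: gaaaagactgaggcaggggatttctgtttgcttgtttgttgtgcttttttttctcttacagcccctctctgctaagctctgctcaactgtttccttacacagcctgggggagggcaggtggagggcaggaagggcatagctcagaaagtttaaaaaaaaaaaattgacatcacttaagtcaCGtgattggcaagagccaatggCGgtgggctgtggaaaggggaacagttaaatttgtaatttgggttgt
Runx1 proximal promoter, upstream bases: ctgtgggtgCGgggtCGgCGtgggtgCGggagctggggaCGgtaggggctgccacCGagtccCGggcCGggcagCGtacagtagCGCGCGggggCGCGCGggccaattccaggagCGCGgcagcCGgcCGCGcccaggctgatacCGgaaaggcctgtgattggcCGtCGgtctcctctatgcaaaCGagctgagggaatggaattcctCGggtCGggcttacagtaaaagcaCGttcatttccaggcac

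The tables held between 381010 and 2620662 used read pairs. No interaction under 2 read pairs or above a q-value of 0.05 was listed, and the share of interactions with exactly 2 read pairs was 59.6% to 73.5%, so a value of 0 means that nothing passed those limits. The NOD 2 library of Smc1 and the replicate 1 libraries of H3K27ac stood apart, with less of their read pairs on chromosomes 16 and 17. Chromosome 16 held from 3.43% to 3.93% of the read pairs of the other 6 libraries, 2.55% in Smc1 NOD 2, 1.13% in H3K27ac BL6 1 and 0.972% in H3K27ac NOD 1. Of 15 genes that mark double-positive thymocytes, 13 to 15 had listed contacts in each table, with summed levels of 441 to 1807 CPM (read pairs per 1000000 used read pairs) in Smc1 tables and 1375 to 3257 in H3K27ac tables. Of 8 B cell marker genes 7 or 8 had listed contacts, with summed levels of 1086 to 1285 for Smc1 and 1275 to 2155 for H3K27ac. Of 6 natural killer cell marker genes 4 to 6 had listed contacts, with summed levels of 49.9 to 179 over all tables. The summed levels were 247 to 472 for 8 myeloid genes (6 to 8 listed), 189 to 358 for 7 thymic epithelium genes (6 or 7 listed) and 54.6 to 105 for 6 erythroid genes (3 or 4 listed). The median level per kb of the B cell and thymic epithelium genes lay above that of all genes in all 10 tables, and that of the double-positive genes in 7. Since contacts are not transcripts, these values do not measure purity.

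Runx1 (chromosome 16, 92601466 to 92826074, minus strand, 225 kb) is the RUNX factor that double-positive thymocytes are known to use, and it had the most contacts of the 4 genes in 6 of the 8 BL6 and NOD libraries. Its interactions held 1288 (library 1) and 1543 (library 2) read pairs in Smc1 BL6, then 1354 and 396 in the Smc1 NOD libraries, and 582 in the F1 library on the BL6 genome. CPM scales to the used read pairs of each library and cannot restore contacts that fell short of the listing limits. In CPM the Runx1 levels were 678 and 589 in BL6, 814 and 267 in NOD and 761 in F1. The NOD 2 library was thus the low one, and BL6 lay between the NOD libraries. For H3K27ac, Runx1 interactions in BL6 held 122 read pairs in library 1 and 1309 in library 2, and in NOD 30 and 746, or 277, 1087, 78.7 and 1499 CPM. Both replicate 1 libraries were low and both replicate 2 libraries were high, whatever the strain. The level was at percentile 99.5 of all genes or higher in 4 of the 5 Smc1 libraries, at 97.2 in Smc1 NOD 2, and as low as 77.8 in H3K27ac NOD 1. These ranks do not allow for gene length. Per kb of gene window the percentile was 95.9 to 98.3 in the same 4 Smc1 libraries and 67.1 in Smc1 NOD 2. For H3K27ac it was then 60 and 98.3 in BL6 and 37.5 and 99 in NOD.

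Runx2 (chromosome 17, 44495987 to 44814797, minus strand, 319 kb) had Smc1 read pairs numbering 1007 and 1470 in BL6, 903 and 519 in NOD and 399 in F1. Its levels of 530 and 561 CPM in BL6, 543 in NOD 1 and 521 in F1 lay close together, and NOD 2 was apart at 350. For H3K27ac its read pairs numbered 114 and 672 in BL6 and 88 and 307 in NOD, or 259, 558, 231 and 617 CPM. The replicate 1 libraries again were the low ones. Chromosome 17 as a whole took 1.78% of all read pairs in H3K27ac BL6 1 and 1.28% in NOD 1, while the replicate 2 libraries had 4.97% and 4.8%.

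Runx3 (chromosome 4, 135120645 to 135177990, plus strand, 57.3 kb) had Smc1 read pairs numbering 341 and 231 in BL6, 258 and 125 in NOD and 112 in F1, or 179, 88.1, 155, 84.2 and 146 CPM. For H3K27ac its read pairs numbered 21 and 281 in BL6 and 21 and 166 in NOD, or 47.6, 233, 55.1 and 334 CPM. It was low in the same H3K27ac libraries as Runx1 and Runx2, although chromosome 4 was not depleted there. That chromosome held 7.41% and 6.76% of read pairs in the replicate 1 libraries and 5.7% and 5.81% in the replicate 2 libraries.

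Cbfb (chromosome 8, 105170674 to 105217989, plus strand, 47.3 kb) had few contacts, with Smc1 read pairs numbering 51 and 126 in BL6, 69 and 24 in NOD and 24 in F1. These were 26.8, 48.1, 41.5, 16.2 and 31.4 CPM. For H3K27ac its read pairs numbered 30 and 56 in BL6 and 27 and 21 in NOD, or 68, 46.5, 70.9 and 42.2 CPM. Cbfb ran against the RUNX genes in H3K27ac, with the replicate 1 libraries high. Chromosome 8 held between 4.73% and 5.89% of read pairs in every BL6 and NOD library.

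**Figure D1:**
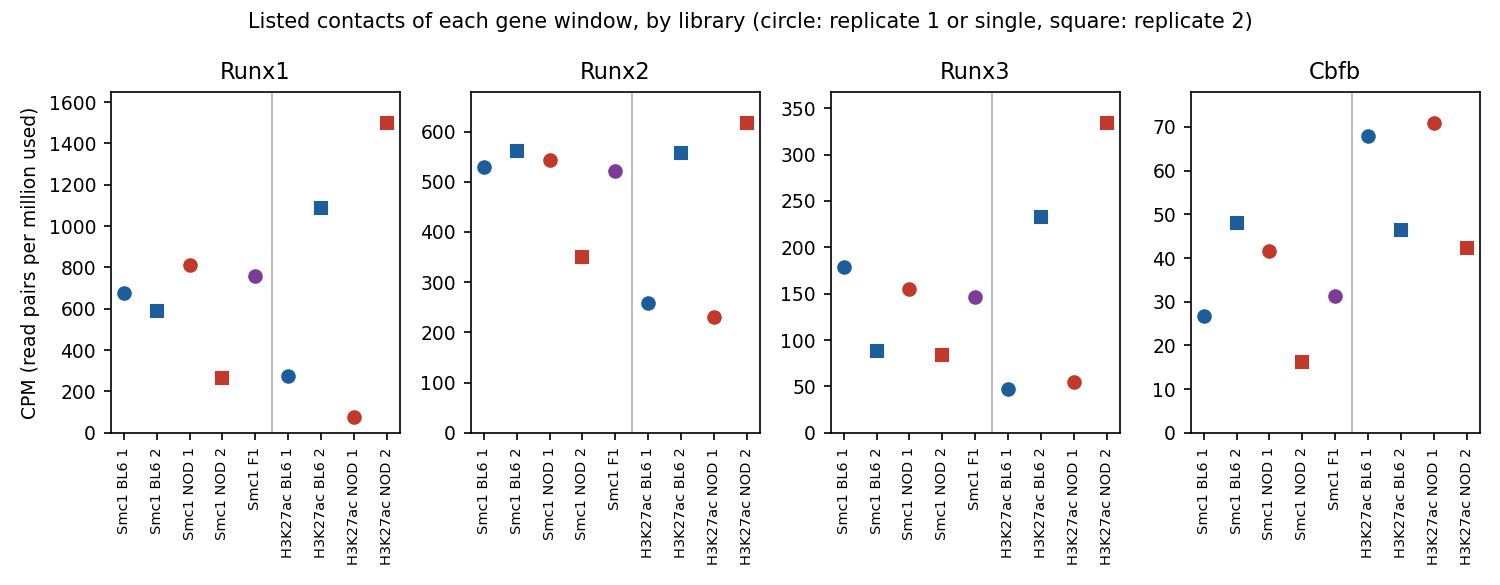
Levels in CPM (vertical axes, from 0, a different scale for each gene) of the 4 gene windows in the 9 libraries (horizontal axes). Blue is BL6, red is NOD and purple is F1 on the BL6 genome. The 3 RUNX genes are low in both replicate 1 H3K27ac libraries, where Cbfb is high.

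**Figure D2:**
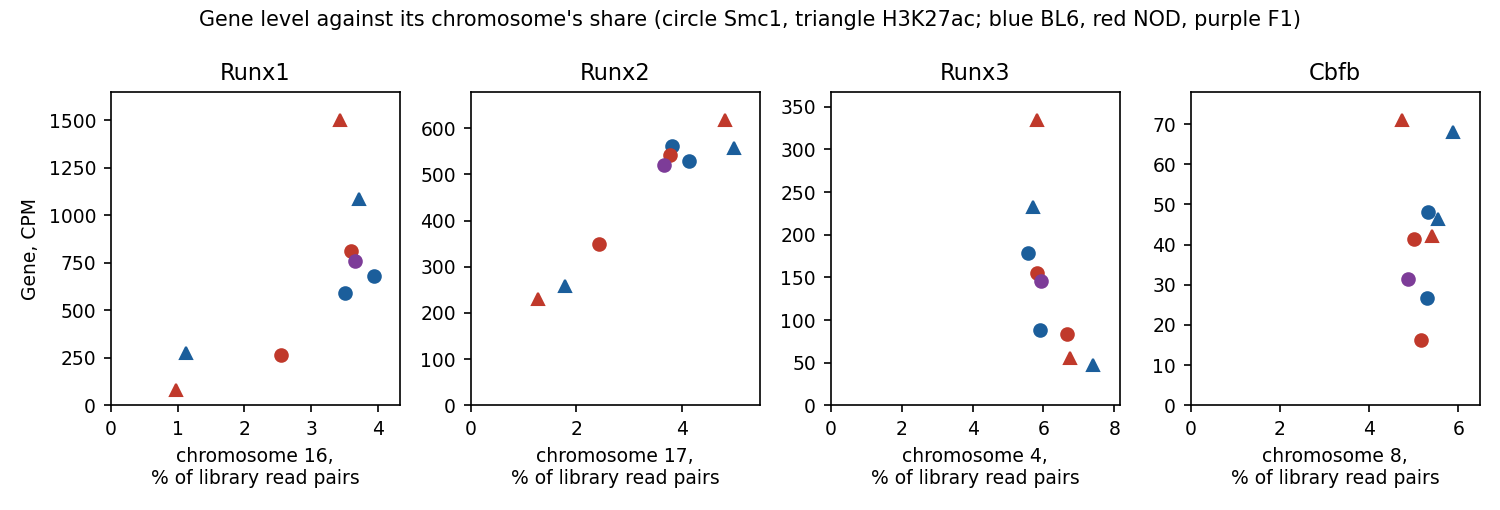
CPM of each gene (vertical axes) against the percentage of the library's read pairs on the chromosome that carries it (horizontal axes), 1 point per library. Runx1 and Runx2 lie low where chromosomes 16 and 17 hold small shares, and Runx3 is low where chromosome 4 holds its larger shares.

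The part of these chromosome shares in the RUNX levels was not tested beyond scaling. As a share of the chromosome's own read pairs, Runx2 stayed between 1.12% and 1.8% in all libraries. Runx1 still ranged from 1.05% to 2.27% over the Smc1 libraries and was 2.45% and 2.92% in the BL6 libraries of H3K27ac and 0.81% and 4.37% in the NOD ones. Runx3 ranged from 0.0643% in H3K27ac BL6 1 to 0.574% in H3K27ac NOD 2. On the F1 library the mapping genome made little difference, with 761 and 724 CPM for Runx1 on the BL6 and NOD genomes, 521 and 499 for Runx2, 146 and 136 for Runx3 and 31.4 and 30.3 for Cbfb.

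Longer genes offer more anchors, so levels between genes were compared per kb of gene window. In Smc1 BL6 the mean was 2.7 ± 0.269 CPM per kb for Runx1, 1.99 ± 0.959 for Runx3, 1.66 ± 0.0664 for Runx2 and 0.654 ± 0.262 for Cbfb (SD, n = 2 each). The libraries of Runx1 and Runx3 overlapped, as did those of Runx3 and Runx2, while Cbfb lay below all 3. In Smc1 NOD the means had the same order, at 2.3 ± 1.65, 1.78 ± 0.744, 1.36 ± 0.416 and 0.503 ± 0.312 (SD, n = 2 each). The libraries of the RUNX genes overlapped there, and in Smc1 NOD 2 Runx3 lay above Runx1, at 1.25 against 1.14. In F1 the values were 3.24, 2.17, 1.59 and 0.547 in that order of genes. For H3K27ac the means were 2.91 ± 2.44 and 3.36 ± 4.28 for Runx1 in BL6 and NOD, and no order held. Cbfb had the highest level per kb of the 4 genes in H3K27ac BL6 1, at 1.19, and in H3K27ac NOD 1, at 1.24, and the lowest in the replicate 2 libraries, at 0.812 and 0.736.

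Runx1 contacts pointed to 1 side of the gene. Of its read pairs with a partner outside the gene window, 91.9% and 87.5% led upstream of the start in Smc1 BL6, 90.3% and 88.2% in Smc1 NOD, 91.9% in F1, 85.2% and 88.5% in H3K27ac BL6 and 84% and 94.6% in H3K27ac NOD. Over the 9 libraries the share was 90%, against a median of 49.6% for the 13378 genes with at least 100 such read pairs, of which 1.14% had a share as high. Runx2 also led mostly upstream, with 70.9% (13% of genes as high), while Runx3 with 61.2% (27.1%) and Cbfb with 40.6% (69%) were near the middle of the distribution. In single libraries the upstream share ran from 60% to 82.5% for Runx2, from 47.6% to 68% for Runx3 and from 30% to 61.9% for Cbfb.

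The Runx1 partners lay in a long interval with no protein-coding gene. Between the 5′ end of Runx1 and Setd4, a gene for a lysine methyltransferase, are 757 kb (chromosome 16, 92826075 to 93583456), a length reached by 2.07% of the 19439 intervals between protein-coding genes, whose median is 16.9 kb. The gene table places 8 noncoding genes there, among them 1810053B23Rik and Mir802. This interval received 82.9% and 81% of the outer read pairs of Runx1 in Smc1 BL6, 82% and 82.6% in Smc1 NOD and 82.7% in F1. For H3K27ac it received 71.6% and 70.7% in BL6 and 60% and 80.7% in NOD, the 60% resting on 25 read pairs. The corresponding interval downstream, 60.2 kb up to Clic6, received at most 5.09% in any library. The upstream interval is much the longer one, and these shares were not scaled to interval length, so they do not compare contact density. Only 14.4% of the outer read pairs of Runx1, over the 10 tables, met another protein-coding gene, against 51.1% for Runx2, 44.8% for Runx3 and 79% for Cbfb.

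**Figure D3:**
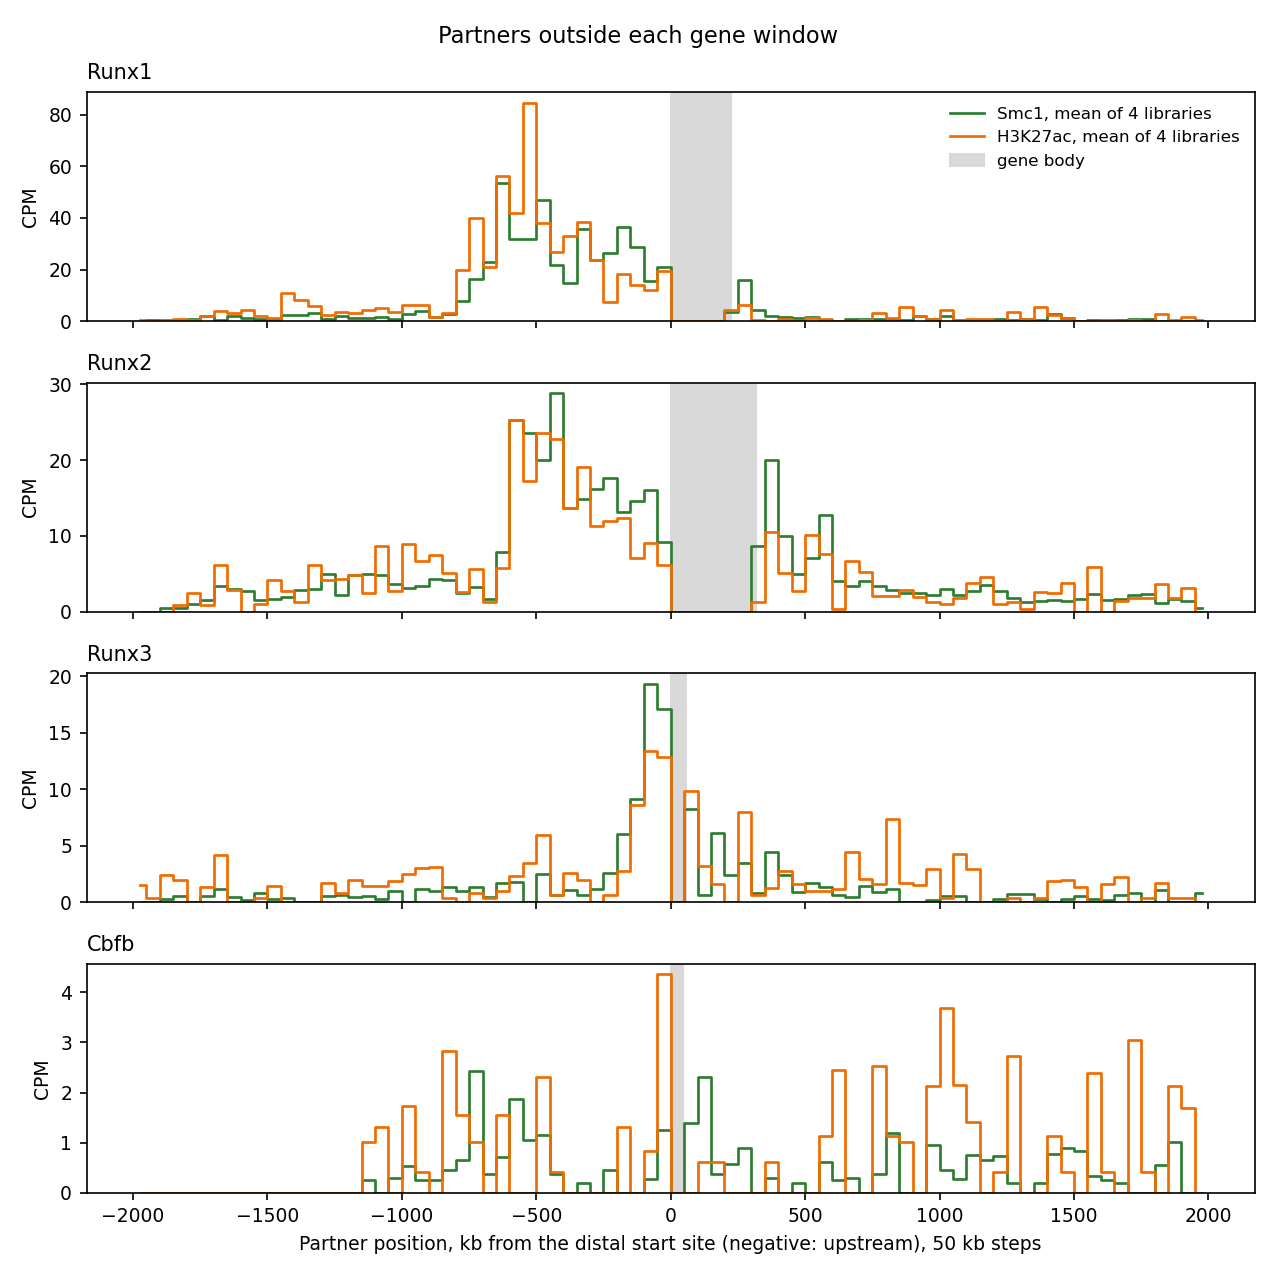
CPM of interactions that join each gene window to partners outside it (vertical axes, a scale for each gene) by the partner's distance from the distal start site in kb (horizontal axis, upstream negative, 50 kb steps). Lines are means over the 4 BL6 and NOD libraries of each antibody and grey marks the gene body. Runx1 partners fill the 757 kb upstream interval, Runx3 partners lie close to the gene in Smc1 and Cbfb partners are scattered.

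Within the interval the contacts of Runx1 were spread over several places and not over 1 peak. The bin 336 kb upstream of the distal start site (93150001 to 93175000) was listed in all 10 tables, with 14.2 and 16.8 CPM in Smc1 BL6, 48.7 and 11.5 in Smc1 NOD, 3.92 in F1, 36.3 and 29.1 in H3K27ac BL6 and 5.25 and 34.2 in H3K27ac NOD. The bin 611 kb upstream (93425001 to 93450000) was listed in 9 tables and had a mean of 29.4 CPM over 9 libraries. It stood at 21.6 and 18.7 in Smc1 BL6, 27.1 and 22.2 in Smc1 NOD, 22.2 in F1, 15.9 and 40.7 in H3K27ac BL6 and 96.4 in H3K27ac NOD 2, and was not listed in H3K27ac NOD 1. The bins 461, 561 and 186 kb upstream had means of 22.7, 21.6 and 19.8 CPM and were likewise missing from 1 of the 10 tables each. In 25 kb steps counted from the distal start site, the one from 500 to 525 kb upstream had the highest mean, 34 CPM. There H3K27ac NOD 2 reached 151 CPM, against 57.3 in H3K27ac BL6 2, 4.04 to 32.7 in the Smc1 libraries and 0 in both replicate 1 H3K27ac libraries.

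**Figure D4:**
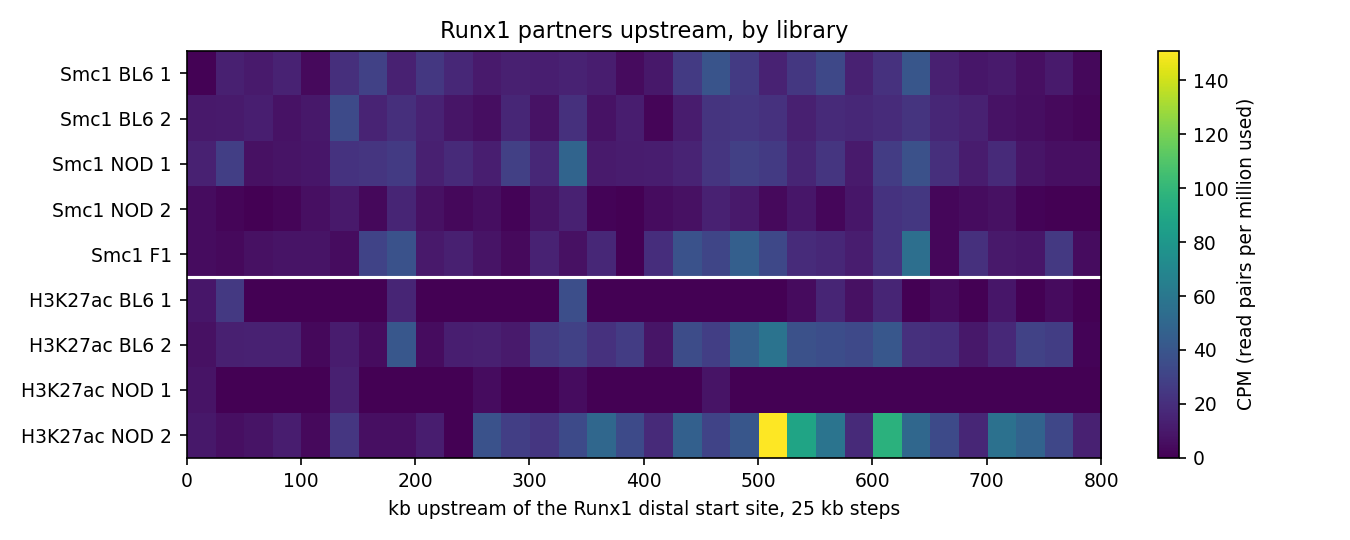
Runx1 partners up to 800 kb upstream of the distal start site (horizontal axis, kb, 25 kb steps) in the 9 libraries (rows), with colour giving CPM. The Smc1 libraries are filled along the interval, H3K27ac NOD 2 peaks at 151 between 500 and 525 kb, and the replicate 1 H3K27ac rows are nearly empty.

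The strongest single interaction of Runx1 joined the region of its proximal promoter to the far part of this interval in Smc1 NOD 2, with 11 read pairs over 754 kb, and in F1, with 12 over 755 kb. Both partners lay at 93451141 to 93455144, together with that of Smc1 NOD 1, whose strongest interaction started from another place in the gene, with 10 read pairs over 778 kb. This segment was chosen after its values were seen and is given without a test. Counting anchors within 5 kb, the proximal promoter met it with 3 and 9 read pairs in Smc1 BL6, 8 and 16 in Smc1 NOD and 12 in F1, or 1.58, 3.43, 4.81, 10.8 and 15.7 CPM. In the 4 H3K27ac libraries no interaction between the 2 places was listed. Any part of Runx1 met the segment with 40.5 and 14.9 CPM in Smc1 BL6, 31.9 and 26.9 in Smc1 NOD, 57.5 in F1, 11.3 and 25.8 in H3K27ac BL6 and 0 and 58.3 in H3K27ac NOD. In Smc1 BL6 and in H3K27ac the strongest Runx1 interaction stayed inside the gene instead, over 14.6, 14.3, 43.6, 62.8, 23.2 and 40.3 kb in the 6 libraries.

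Inside Runx1, counted in 25 kb steps, the most contacts lay at and beside the proximal promoter. Interactions with both anchors in the window, 5.81% to 27.9% of Runx1 read pairs by library, were counted only at the anchor nearer the 3′ end. The steps near the distal start therefore lack part of their contacts. The 25 kb step that holds it, 125 to 150 kb into the gene from the distal start, had a mean of 119 CPM over 9 libraries, and the steps beside it 103 and 98.8, against 47.5 in the first 25 kb after the distal start. It was the highest step in all 5 Smc1 libraries, but in none of the 4 H3K27ac libraries, where 1 of the neighbouring steps led or, in NOD 2, both did. There the step that holds the promoter had 18.1 CPM against 111 in BL6 1, 147 against 174 in BL6 2, 5.25 against 21 in NOD 1 and 205 against 273 in NOD 2. Within 5 kb of the proximal start site there were 50.5 and 59.9 CPM in Smc1 BL6, 76.4 and 37 in Smc1 NOD and 127 in F1. Around the distal start site there were 10.5 and 21, 72.1 and 0, and 27.4. The proximal value was the higher one in each of these 5 libraries, with 76.4 against 72.1 in Smc1 NOD 1. For H3K27ac the proximal and distal values were 18.1 and 4.54 in BL6 1, 54.8 and 31.6 in BL6 2 and 157 and 72.3 in NOD 2, and both were 0 in NOD 1. The anchors themselves gave a separate readout, the reads the authors counted in them. The anchor over the proximal promoter held 1410 reads in H3K27ac BL6 2 and 1758 in NOD 2, at percentiles 98.5 and 99.4 of that library's anchors, and 1257 in F1 (percentile 99.9). It was weaker in Smc1 NOD 1 (percentile 72.5), Smc1 BL6 2 (55.7) and H3K27ac BL6 1 (29.1), and no anchor covered that start site in Smc1 BL6 1, Smc1 NOD 2 and H3K27ac NOD 1. The distal anchor held 1093 and 1467 reads in H3K27ac BL6 2 and NOD 2, at percentiles 95.4 and 98.9. Elsewhere it was nearer the middle or low, at 43.4 in H3K27ac BL6 1, 32.7 and 22.4 in Smc1 BL6, 58.1 in Smc1 NOD 1 and 54.5 in F1, and it was missing from Smc1 NOD 2 and H3K27ac NOD 1.

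Runx1 met 44 of the 48 protein-coding genes within reach in at least 1 library and 17 in at least 5. Of the 6 listed in the most tables, 5 lay beyond the interval on the same side and Clic6 on the other. Hlcs, which encodes the enzyme that attaches biotin to carboxylases, was met in all 10 tables from 1303 kb away, with 8.95 and 8.01 CPM in Smc1 BL6, 13.8 and 4.72 in Smc1 NOD, 13.1 in F1, 9.07 and 39 in H3K27ac BL6 and 5.25 and 52.2 in H3K27ac NOD. Dop1b was met in all 10 tables as well, 886 kb away, with a mean of 9.08. Setd4 (757 kb, mean 13.9), the claudin gene Cldn14 (1093 kb, 6.52) and Clic6 (60.2 kb on the other side, 6.12) were each met in 8 tables, and Ttc3 (1545 kb, 5.86) in 9.

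Runx2 shares its 5′ part with Supt3, a gene of the SAGA coactivator complex, and read pairs over that stretch count in the gene sums of both. The partner values below take only partner anchors outside the Runx2 window. Supt3 was the leading partner by summed level, with 74.7 and 102 CPM in Smc1 BL6, 105 and 75.4 in Smc1 NOD, 110 in F1, 52.2 and 63.1 in H3K27ac BL6 and 31.5 and 104 in H3K27ac NOD. Its window spans 352 kb, against 41.9 to 248 kb for the other Runx2 partner genes named below. Partner levels, for all 4 genes, were not scaled to the partner's length. The top bins lay further up, 423 to 573 kb from the start, in or at the end of the 273 kb interval between Supt3 and the splicing factor gene Cdc5l. The bin 448 kb upstream was listed in all 10 tables, with 11.1 and 9.92 CPM in Smc1 BL6, 24.6 and 16.8 in Smc1 NOD, 20.9 in F1, 13.6 and 11.6 in H3K27ac BL6 and 10.5 and 4.02 in H3K27ac NOD. The interval received between 22.1% and 41.2% of the outer read pairs of Runx2 in the 10 tables. Cdc5l itself had a mean of 19.1 CPM, Clic5 on the downstream side 19.9 and the calcineurin regulator gene Rcan2 11.3. Cyp39a1 (4.55) and Spats1 (5.68) followed. Around the distal start site Runx2 had 4.72 to 17 CPM in the Smc1 libraries, and its anchor, where present, was among the weaker ones, at percentiles 8.44 to 12. In contrast with Runx1, the counted contacts of Runx2 grew toward the 3′ end. The mean was 73.9 CPM in the 25 kb step that holds that end and 18.3 in the first step after the start. Part of this slope comes from the counting, which placed interactions inside the window, 4.23% to 17.8% of Runx2 read pairs by library, only at their 3′ anchor.

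Runx3 contacts were the shortest of the 4 genes in every Smc1 library. The median span was 289 and 313 kb in Smc1 BL6, 363 and 319 in Smc1 NOD and 486 in F1, against 562 to 764 for all interactions of those libraries. The bin 58.1 kb upstream of the distal start (135050001 to 135075000) led, with 30 and 8.01 CPM in Smc1 BL6, 12.6 and 6.74 in Smc1 NOD, 14.4 in F1, 15.9 and 5.81 in H3K27ac BL6 and 8.04 in H3K27ac NOD 2, and it was not listed in H3K27ac NOD 1. It held the partner of the strongest Runx3 interaction in Smc1 BL6 1, with 22 read pairs over 57 kb onto the distal promoter region. The bin 108 kb upstream followed with a mean of 5.45. In H3K27ac the median spans were 465 and 767 kb in BL6 and 1333 and 679 kb in NOD. All interactions of those libraries had medians of 773 and 807 kb in BL6 and 544 and 767 kb in NOD, so the short spans did not hold throughout H3K27ac. The distal promoter anchor was strong in the replicate 2 libraries of H3K27ac, with 988 reads in BL6 2 and 918 in NOD 2, at percentiles 93.5 and 94.4. It was weak in Smc1 BL6 1, Smc1 NOD 1 and F1, at percentiles 5.12, 33 and 17.4, and missing from the other 4 libraries, among them both replicate 1 libraries of H3K27ac. No anchor covered the Runx3 proximal start site in any of the 10 tables. The leading partner genes were Man1c1, a mannosidase gene (mean 7.48 CPM), and Rcan3 (4.2), with Stpg1 (3.51), the receptor tyrosine kinase gene Ephb2 (2.81), Nipal3 (1.62) and Grhl3 (1.56) behind them.

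Few partners of Cbfb recurred. Of the 67 protein-coding genes it met, 5 were met in at least 5 libraries. Of the 87 bins it met, 46 were listed in 1 of the 9 libraries and 1 in at least 5, whereas Runx1 met 55 of 145 bins in at least 5 libraries, Runx2 77 of 148 and Runx3 14 of 136. Bins met in all 9 libraries numbered 2 for Runx1, 7 for Runx2 and 0 for Runx3 and Cbfb. The most often listed Cbfb bin, 1867 kb downstream at Vps4a, Pdf and Cog8, was in 5 tables with a mean of 1.4 CPM. The partner genes were Tango6 in 8 tables (2.17), Slc7a6os in 6 (1.55) and Ranbp10 (1.49), Vps4a (1.4), Smpd3 (1.17) and the E-cadherin gene Cdh1 (1.17) in 5 each. The Cbfb promoter anchor, by contrast, was present in all 4 H3K27ac libraries, at percentiles 66.8, 74.7, 83 and 78.1 of anchor reads in BL6 1, BL6 2, NOD 1 and NOD 2, and in 1 of the 5 Smc1 libraries, BL6 1, at 46.7. With 21 to 126 read pairs per table, the spread of these contacts over bins was not resolvable at this depth.

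The first comparison asked whether NOD and BL6, which differ in susceptibility to autoimmune diabetes, differed in cohesin contacts of these genes. No RUNX gene and not Cbfb passed the test, and their libraries overlapped between strains. edgeR's quasi-likelihood test gave log2 fold changes, NOD against BL6, of -0.23 ± 0.40 for Runx1, -0.26 ± 0.24 for Runx2, -0.13 ± 0.38 for Runx3 and -0.37 ± 0.53 for Cbfb (fitted value ± SE, 2 libraries per strain, Benjamini-Hochberg adjusted p = 0.999 for each). Both libraries of a strain are technical replicates of 1 biological replicate, so these errors and the calls below measure technical spread and not that between animals. Over all 18049 genes tested 30 were higher and 4 lower in NOD (0.188%), and the libraries of the strains did not overlap for 33.3% of genes, against 0 of the 4. The Runx1 value depended on NOD 1. Without that library it was -1.12 with an adjusted p of 0.0011 (edgeR), in a fit that called 807 genes and in which Smc1 NOD 2 stood alone for its strain, and without NOD 2 it was 0.31.

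For H3K27ac, the same comparison gave log2 fold changes of 0.13 ± 1.24 for Runx1, -0.01 ± 0.67 for Runx2, 0.38 ± 1.03 for Runx3 and -0.04 ± 0.73 for Cbfb (edgeR, fitted value ± SE, adjusted p = 1 for each). None of the 4 passed, their libraries overlapped, and of the 13880 genes tested 0 passed in edgeR (0%). Unadjusted p-values under 0.05 numbered 105, and DESeq2 called 17. Libraries did not overlap for 21.4% of genes. With the replicate number as a block, Runx1 was at -0.57 ± 0.39 and Runx3 at 0.35 ± 0.43 (edgeR, adjusted p = 1 for each), so the sign for Runx1 and the size of the errors depended on the block. The difference between the strain effects of the antibodies was tested as an interaction and was 0.37 ± 1.51 for Runx1, 0.28 ± 0.74 for Runx2, 0.53 ± 1.24 for Runx3 and 0.37 ± 0.92 for Cbfb (edgeR, adjusted p = 1 for each). Of 18096 genes 0 passed (0%). Unadjusted p-values under 0.05 numbered 334, and DESeq2 called 0. The interaction fit pooled technical replicates of Smc1 with biological replicates of H3K27ac, so its errors mix both kinds of spread.

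H3K27ac and Smc1 contacts were compared over 8 libraries with strain as a covariate. The Smc1 libraries of a strain are technical replicates and the H3K27ac libraries biological ones. The errors and calls of this fit therefore mix both kinds of spread. The log2 difference, H3K27ac against Smc1, was 0.02 ± 0.70 for Runx1 (adjusted p = 0.995), -0.56 ± 0.34 for Runx2 (0.472), 0.09 ± 0.58 for Runx3 (0.965) and 0.47 ± 0.43 for Cbfb (0.647), by edgeR's quasi-likelihood test. None of the 4 passed and each overlapped between antibodies, while 23 genes were higher and 358 lower of 17593 (2.17%) and libraries did not overlap for 17.7% of genes. Scaling to library totals shifted the median of all genes by 0.32 and made the split 66 higher and 223 lower, and scaling each gene to its own chromosome's read pairs, an alternative chosen after the data were seen, shifted it by 0.30 and made it 372 and 455. On the latter scale Runx1 was at 0.67 (adjusted p = 0.346 in edgeR) and Runx2 at -0.01.

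**Figure D5:**
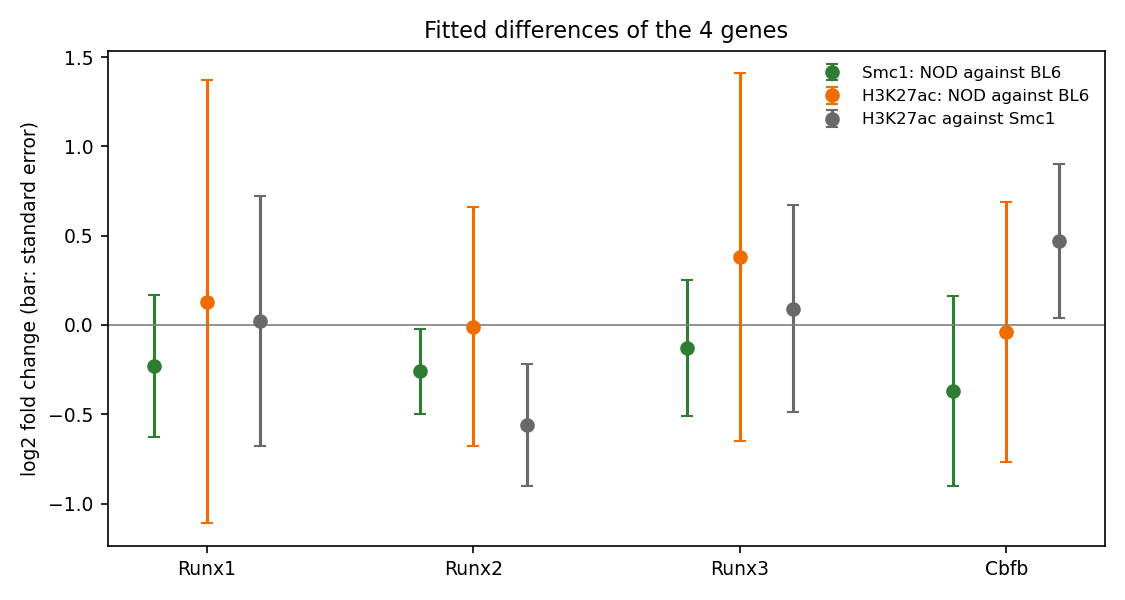
Fitted log2 fold changes (vertical axis) of the 4 genes (horizontal axis) in the 3 comparisons, from edgeR's quasi-likelihood fits, with bars giving the standard error. The values lie between -0.56 and 0.47 and none passed the threshold.

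Single contacts were compared as pairs of 25 kb bins. In Smc1, 15 tested bin pairs touched Runx1, of which 5 leaned to NOD and 10 to BL6 with a median log2 fold change of -0.23. Runx2 had 1 tested pair at 0.40 and Runx3 2 with a median of 0.07, and Cbfb had 0. None of these had an unadjusted p under 0.05, and of all 5611 pairs edgeR called 0 (0%), while DESeq2 called 127 and 271 had an unadjusted p under 0.05. In H3K27ac 1 pair at Runx1 entered the test, at -0.35 with an adjusted p of 1, and 6 of 372 pairs were called elsewhere (1.61%, edgeR).

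The genes around the RUNX proteins were read from 2 lists. Of 26 cofactors and interacting factors, such as the Tle corepressors, the acetyltransferases Ep300 and Crebbp and the partner factors Ets1, Gata3 and Tcf7, 25 were tested for Smc1 and 22 for H3K27ac between strains, and 0 passed in either. Their median log2 fold changes were 0.02 and -0.05, beside 0.01 and -0.01 for all genes tested. Of 28 RUNX target genes in T cells, such as Cd4, Cd8a, Zbtb7b, Il7r and Bcl11b, 27 and 20 were tested and 0 passed. Their medians of -0.25 and -0.29 lay below those of all genes, with 16 of 27 and 15 of 20 leaning to BL6. This leaning was not tested, and the share of all genes that leaned to BL6 was not counted. Neighbours on the list, such as Cd8a and Cd8b1, can share interactions and are not independent.

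Across the 9 libraries, the levels of the RUNX genes moved together. The Pearson correlation of log2(CPM + 5) was 0.932 between Runx1 and Runx2, 0.875 between Runx1 and Runx3 and 0.858 between Runx2 and Runx3, and -0.264, -0.359 and -0.313 between Cbfb and Runx1, Runx2 and Runx3. Genes over 1 Mb away followed them as closely or more so, led by Raly, Cep192 and Dtnb for Runx1 (0.988, 0.986 and 0.986), Fpgs, Myo1f and Usp25 for Runx2 (0.993, 0.989 and 0.988), Diablo, Tmprss9 and Jarid2 for Runx3 (0.989, 0.988 and 0.986) and Ngfr, Hk1 and Olfr157 for Cbfb (0.969, 0.948 and 0.943). Of these 12, Myo1f lies on the same chromosome as the gene it followed, 17, whose share of read pairs varied between libraries as given above. Usp25, which also followed Runx2, lies on chromosome 16, whose share was low in the same libraries as that of chromosome 17. Runx1 lies on chromosome 16 as well. These are descriptions over 9 libraries that share depth, antibody and replicate number. For the RUNX genes the spread followed is mainly that between the H3K27ac replicates. Cbfb also varied within Smc1, from 16.2 to 48.1 CPM, beside 42.2 to 70.9 in H3K27ac.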

How the data were processed

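HiChIP interactions were analysed for 9 libraries. The authors deposited, per the file headers, counts of read pairs per interaction and counts of reads per anchor, without normalization. They also deposited a p-value and a q-value for each interaction. HiC-Pro, Juicer 1.7.6 and MACS, and the build GRCm38, are listed without a role in the submitters' processing notes. Per the deposited file names, mapping of NOD libraries was to the NOD genome, with positions shifted to BL6, so strain and mapping genome cannot be told apart. Interactions within chromosomes 1 to 19 and X were used. Each counted once per gene, neighbouring genes share interactions, and an unlisted interaction counted as 0 in sums and fits. Sums were made in Python 3.11.15 with pandas 2.3.3. Percentiles are over the 21627 genes or over a library's anchors.

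Gene sums and sums per pair of 25 kb bins were tested with edgeR 4.0.16 in R 4.3.3 (quasi-likelihood, TMM, table totals as library sizes, default filter, Benjamini-Hochberg threshold 0.05) over whole tables, and checked with DESeq2 1.42.0. The SE is the fitted fold change over the root of its F statistic. Alternatives covered normalization, filters, distance, gene window, each library and the replicate block.

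The members and the gene lists were chosen with earlier results of these data known. The naming rule took the 4 genes, up to 6 partner genes and 6 partner bins each by number of tables and mean level, the 3 genes with the highest correlation over 1 Mb away, and list genes with an adjusted p under 0.05. The gene lists were also tested between antibodies, and neither list's result there is reported here. Promoter sequences and start sites came from RefSeq (GRCm38.p6).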

Additional observations from a re-analysis of the deposited data

Results flagged for a closer look

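Runx2 in Smc1 NOD 2 was far from the other Smc1 libraries, with 350 CPM against 530 to 561 in the 3 others. About 1 such group in 20 is expected to stand out by chance, and 8 groups of 4 libraries were looked at. In the same library chromosome 17 held 2.43% of read pairs, against 3.77% to 4.13% in the 3 others, and Runx2 made up 1.44% of that chromosome, as in NOD 1.

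Interactions under 10 kb, which the comparisons left out, were also listed at these genes. Summed over the 10 tables they held 213 read pairs at Runx1 (8 tables), 284 at Runx2 (6 tables), 169 at Runx3 (6 tables) and 45 at Cbfb (3 tables), with up to 92, 160, 87 and 16 in 1 table.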

How the results depend on the processing

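Of 264 alternative values of the 4 genes, 202 kept their direction and stayed short of the threshold, 61 changed sign and 1, Runx1 in Smc1 without NOD 1 (-1.12), passed it. Genes called in Smc1 between strains numbered 34, and 14 with at least 3 read pairs per interaction, 17 with the gene body alone, 17 with gene ends and 4 to 807 over the fits without 1 library each. In H3K27ac they numbered 0, 17 with DESeq2 and 0 to 27 without 1 library each. Between antibodies they numbered 381, and 1426 with DESeq2, 117 with at least 3 read pairs, 0 with gene ends, 827 with chromosome totals, 0 in BL6 alone, 0 in NOD alone and 109 to 476 without 1 library each. Called bin pairs in Smc1 numbered 0, 127 with DESeq2, 25 with no filter and 0 to 54 without 1 library each. In H3K27ac they numbered 6, 15 with DESeq2, 3 with library totals, 3 with no filter, 12 with at least 3 read pairs, 10 at 20 kb or more, 0 with 50 kb bins and 0 to 17 without 1 library each. A fit that leaves 1 library for a strain takes the spread of the others for it. Replicate numbers are shared by title only. The deviations of same-numbered libraries correlated at 0.226 for Smc1 and 0.587 for H3K27ac over genes. With the replicate block 58 genes were called in Smc1, 42 in H3K27ac, 13 bin pairs in Smc1 and 16 in H3K27ac, and no call was made for the 4 genes.

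Signs changed as follows, with the cause not tested. In Smc1 between strains Runx1 ranged from -1.12 to 0.31, Runx3 from -0.56 to 0.44 and Cbfb from -1.10 to 0.12 without 1 library each, Runx2 was 0.06 with chromosome totals, and Cbfb was 0.02 with at least 3 read pairs and 0.24 with gene ends. In H3K27ac between strains the ranges were -3.11 to 1.46 for Runx1, -0.82 to 0.68 for Runx2, -1.36 to 1.98 for Runx3 and -0.49 to 0.33 for Cbfb. There Runx1 was -0.57 with the replicate block, -0.68 with gene ends and -0.03 with chromosome totals. Runx2 was 0.02 with DESeq2, 0.05 with library totals, 0.02 with no filter, 0.01 at 20 kb or more, 0.29 with gene ends, 0.04 without interactions inside the window and 0.26 with chromosome totals. Cbfb was 0.05 with at least 3 read pairs and 0.19 with chromosome totals. Between antibodies Runx1 ranged from -1.04 to 0.40 and Runx3 from -0.56 to 0.45 without 1 library each. Runx1 was -0.53 with the replicate block, -0.01 with the gene body, -0.30 with gene ends, -0.05 without interactions inside the window and -0.17 in BL6 alone. Runx3 was -0.15 with at least 3 read pairs, -0.25 with the block, -0.06 with the gene body and -0.18 in BL6 alone. With gene ends Runx2 was 0.44 and Cbfb -0.04. For the interaction the ranges were -2.89 to 1.67 for Runx1, -0.56 to 0.93 for Runx2, -1.25 to 2.11 for Runx3 and -0.15 to 1.06 for Cbfb. With gene ends Runx1 was -0.19 and Cbfb -0.28, and with at least 3 read pairs Runx2 was -0.06 and Cbfb -0.08. Of 100 CPM levels under other settings, 70 moved by less than the spread between replicates, or, for the single F1 library, than its counting error. Where that spread was wide, large moves fell within it. Runx1 in H3K27ac NOD had a mean of 789 CPM with an SD of 1004, so its 51.2 with gene ends counted among the 70. The chromosome totals were added after the data were seen. Low counts limit what can be read for Cbfb in all tables and for the RUNX genes in the replicate 1 H3K27ac libraries. The cause of the low RUNX counts was not tested. H3K27ac NOD 2 held 746 Runx1 read pairs of 497751 used, BL6 1 held 122 of 440901 and NOD 1 held 30 of 381010. These totals count listed read pairs that had passed the limits and do not measure sequencing depth.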
